A study of Mus musculus with 18 samples.

Results

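The BCL2 family decides whether a cell keeps its mitochondria intact or enters apoptosis. 10 genes of this family were followed here, taken from the table by their names: the survival genes Bcl2, Mcl1, Bcl2l1, Bcl2a1a, Bcl2a1b and Bcl2a1d, and the death genes Bcl2l11, Bbc3, Pmaip1 and Bax. All 10 were among the 21734 protein-coding genes of the count table. All 10 passed the filter on low counts that left 11357 genes for testing, Bcl2a1a through its LPS libraries.

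The cells were bone marrow-derived macrophages (BMDMs), which are grown from marrow in the growth factor M-CSF. Per the labels, marrow came from mice of a 129/B6 mix aged 6 to 7 months, 3 mice of each genotype, and was cultured for 8 to 9 days in M-CSF at 10 ng/ml. The wild-type (WT) mice carried intact miR-146a, the KO mice lacked it, and the 3F mice, named 3′F in the series, carried a miR-146a with the seed kept and part of its 3′ sequence exchanged with that of the opposite strand of the hairpin. KO and 3F mice were homozygous for their allele, and each allele was made in its own embryonic stem cell line. BMDMs of each genotype were given fresh medium without LPS (resting) or with LPS, a bacterial cell wall component sensed by TLR4, at 1 ng/ml for 16 h, which gave 6 groups of 3 RNA-seq libraries. With 3 mice and 6 libraries per genotype the resting and LPS libraries share mice, but the labels do not say which libraries do, and the tests treat the libraries as separate. The comparisons ask how these genes respond to LPS in each genotype and whether their levels in KO and in 3F differ from those in WT.

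In these proteins the balance is set by binding. The survival members BCL2, MCL1, BCL-XL (from Bcl2l1) and A1 (from the Bcl2a1 genes) hold back the effectors BAX and BAK, which otherwise open pores in the outer mitochondrial membrane. The BH3-only members BIM (from Bcl2l11), PUMA (Bbc3) and NOXA (Pmaip1) bind the survival members and so release the effectors. MCL1 and A1 are short-lived proteins known for keeping myeloid cells alive, and A1 is known as a target of NF-κB, the transcription factor that TLR4 activates and that miR-146a restrains.

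Total counts ran from 4071084, in resting 3F replicate 3, to 19818043 per library. Summed markers of macrophages lay between 31100 and 86500 CPM (counts per 1000000 of the library size scaled by TMM), and Adgre1 and Csf1r were at 1130 and 992 CPM or more in every library. Markers of T cells, B cells, dendritic cells and stromal cells summed to 2.69, 1.17, 3.98 and 3.51 CPM at most, and Cd3e was at 0 in every library. Neutrophil and granulocyte precursor markers summed to 12.4 to 66 CPM. Resting KO replicate 3 stood apart: 10 interferon response genes summed to 10500 CPM in it, against 482 and 335 CPM in resting KO replicates 1 and 2, 68.1 to 168 CPM in resting WT and 84.9 to 154 CPM in resting 3F. Resting 3F replicate 3 was the shallowest library. Many of the results that rest on either library are also given without it. The values without it were added after the data were seen.

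The mouse A1 genes are near-identical copies on chromosome 9, which limits what short reads can say of each. In the mm10 build Bcl2a1a (ENSMUSG00000102037) lies at chr9:88956900-88962419 on the plus strand, Bcl2a1b (ENSMUSG00000089929) at chr9:89199209-89207827 on the plus strand and Bcl2a1d (ENSMUSG00000099974) at chr9:88723285-88731914 on the minus strand. Their coding sequences of 516 bases were identical at 97.9% of positions between Bcl2a1a and Bcl2a1b, at 98.6% between Bcl2a1a and Bcl2a1d and at 98.8% between Bcl2a1b and Bcl2a1d. The coding part of the last exon, 96 bases read 5′ to 3′ along each gene from the mm10 transcripts, is shown because it lets the likeness of the copies be seen. Capitals mark the only position at which the copies differ there.

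Bcl2a1a, chr9:88962172-88962267: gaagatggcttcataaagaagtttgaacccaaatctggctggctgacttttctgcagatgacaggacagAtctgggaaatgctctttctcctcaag
Bcl2a1b, chr9:89207582-89207677: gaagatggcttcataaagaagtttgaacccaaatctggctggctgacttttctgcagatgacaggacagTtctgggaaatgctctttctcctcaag
Bcl2a1d, chr9:88723437-88723532: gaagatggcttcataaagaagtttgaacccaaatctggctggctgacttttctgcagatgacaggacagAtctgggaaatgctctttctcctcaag

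Over this stretch Bcl2a1a and Bcl2a1d were the same, with 0 differing bases, and Bcl2a1b differed from each at 1 base. Of all stretches of 50 bases in its transcript, 69% of those of Bcl2a1a, 79.2% of those of Bcl2a1b and 79.5% of those of Bcl2a1d also occur in a transcript of another gene. With 75 bases the shares were 55.2%, 68.4% and 67.6%. The authors kept only reads placed with a mapping quality of at least 50, which leaves out reads that fit several places equally well, so the counts of each copy rest on its less common stretches. The 3 values below are therefore given as uncertain between copies. The count table lists a length of 246 bases for Bcl2a1b, which is the length of its last exon alone. Its first exon, of 571 bases, shares its strand and position with exons of Gm29094.

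The promoters of the copies, taken as 250 bases before to 50 after the RefSeq start in GRCm38.p6, were searched on both strands for 3 motifs. The letters TGANTCA, a loose form of the AP-1 motif with any base at N, occurred in the windows of Bcl2a1a, Bcl2a1b and Bcl2a1d. They occurred in 7.81% of all 32851 promoter windows. The κB consensus occurred in windows of Bbc3 and Bcl2l1 and in 8.46% of all. The interferon response element letters, GAAA and GAAA again after 2 free bases, occurred in no window of the 10 genes and in 3.44% of all. The match to TGANTCA, in capitals, had A at the free base and so is a match to the loose letters only. It stood 120, 164 and 114 bases before the start in Bcl2a1a, Bcl2a1b and Bcl2a1d. It lay inside the same 27 bases in each copy, so these are not independent matches. Whether AP-1 binds there was not tested.

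Bcl2a1a, chr9:88956790-88956816, plus strand: acttttaaacTGAATCAgaagaggaag
Bcl2a1b, chr9:89199099-89199125, plus strand: acttttaaacTGAATCAgaagaggaag
Bcl2a1d, chr9:88731948-88731974, minus strand: acttttaaacTGAATCAgaagaggaag

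The microRNA that is absent in KO and altered outside its seed in 3F is miR-146a-5p. Its relative miR-146b-5p shares the seed and is encoded elsewhere. Both are printed from RefSeq, GRCm38.p6, with bases 2 to 8, the seed, in capitals.

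miR-146a-5p, chr11:43374435-43374456, minus strand: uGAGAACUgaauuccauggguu
miR-146b-5p, chr19:46342790-46342811, plus strand: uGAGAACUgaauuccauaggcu

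Matches to this seed were looked for in the longest annotated 3′ UTR of each of the 10 genes. A match was AGTTCTC, which pairs with bases 2 to 8, or GTTCTCA, which pairs with bases 2 to 7 and has an A opposite base 1. Such letters occurred in 22.1% of the 11308 tested genes that have an annotated 3′ UTR. Among the 10 genes they occurred once in Bcl2, whose UTR has 5089 bases, and once in Bcl2l1, whose UTR has 1480 bases. The other 8 genes held none, including Mcl1 with 2356 bases and Bcl2l11 with 4221 bases. The 2 matches are shown in capitals with their surroundings in mm10.

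Bcl2, chr1:106539556-106539579, minus strand: gggagccactaaAGTTCTCttctg
Bcl2l1, chr2:152781927-152781950, minus strand: cccccacatctcAGTTCTCttggc

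Levels of different genes were compared as CPM per kb of the exon length listed in the table. In resting WT BMDMs Mcl1 stood highest at 376 ± 35.5 CPM per kb, followed by Bax at 120 ± 17.4, Bcl2a1b at 40.2 ± 7.82 and Bcl2l1 at 23.5 ± 0.859 (SD, n = 3). Bcl2l11 came next at 8.43 ± 2.12, then Bbc3 at 4.12 ± 0.31, Pmaip1 at 2.95 ± 0.903, Bcl2 at 2.68 ± 0.42, Bcl2a1d at 1.7 ± 0.493 and Bcl2a1a at 0.171 ± 0.149. The SD ranges of Bbc3 and Pmaip1 met, as did those of Pmaip1 and Bcl2, and those of the other neighbours in this order did not. The listed lengths of Bcl2a1b (246 bases) and Bax (511 bases) were short, so the places of these 2 genes in the order depend on that column. Mcl1 made up 84.6% ± 1.42 of the summed CPM per kb of the 6 survival genes in resting WT and 90.8% ± 1.8 after LPS. In KO the shares were 89.6% ± 2.48 and 90.1% ± 1.13, and in 3F 81.4% ± 3.34 and 91.2% ± 1.63. These shares also depend on the listed length of Bcl2a1b.

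**Figure D1:**
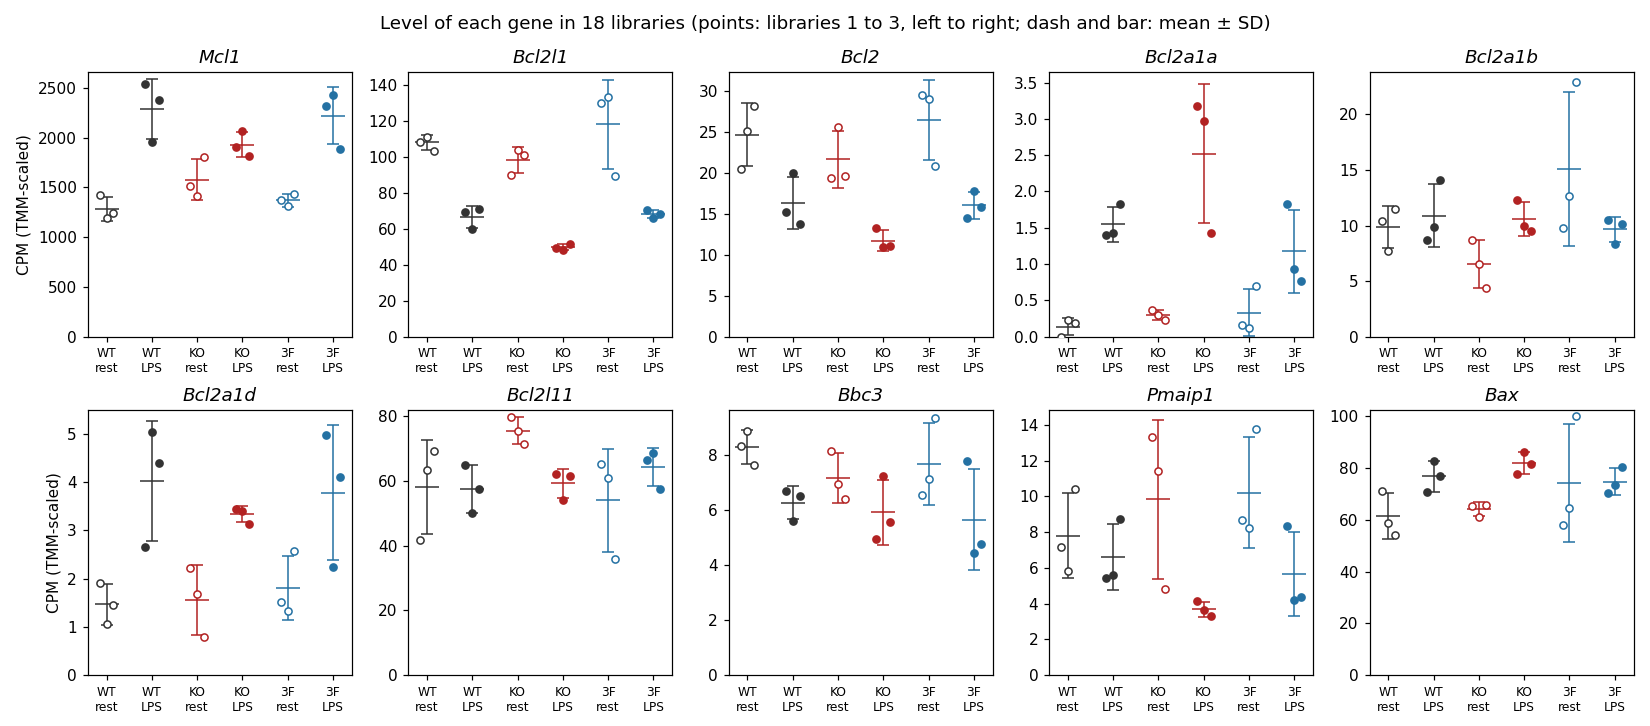
Level of each of the 10 genes in CPM (y axis, linear from 0) in the 18 libraries, by group (x axis; open points resting, filled points LPS; dash and bar are the mean and SD, n = 3). Mcl1 lay at 1190 to 1420 CPM in resting WT and at 1960 to 2540 CPM after LPS, while Bcl2l1 lay lower after LPS in all genotypes and lowest in KO, at 48.5 to 51.8 CPM.

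LPS shifted the survival genes in opposite directions. In WT, 3 of the 10 genes rose (Mcl1, Bcl2a1a and Bcl2a1d) and 2 fell (Bcl2 and Bcl2l1), at an adjusted p under 0.05 in the edgeR quasi-likelihood test over all genes. Of all tested genes 28.5% were called in this comparison, 16.3% as higher and 12.3% as lower. The median log2 fold change of the 10 genes was 0.07, against 0.02 over all genes. In bulk RNA a change in the share of cells and a change per cell cannot be told apart. In KO 1 gene rose (Bcl2a1a) and 3 fell (Bcl2, Bcl2l1 and Pmaip1), with 26.9% of all genes called, 14.3% higher and 12.6% lower, and medians of 0 for the 10 genes and 0.02 for all. In 3F 3 genes rose (Mcl1, Bcl2a1a and Bcl2a1d) and 2 fell (Bcl2 and Bcl2l1). Of all genes 31.2% were called there, 17.2% higher and 14% lower, and the medians were −0.19 and −0.01. The resting and LPS libraries did not overlap for 6 of the 10 genes in WT, 9 in KO and 4 in 3F. Of all tested genes 47.5%, 42.7% and 45.2% did not overlap, so a lack of overlap is common in these comparisons.

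Mcl1 (ENSMUSG00000038612, chr3:95658788-95663176), the survival gene with the highest level per kb here, stood at 1420, 1190 and 1240 CPM in resting WT replicates 1 to 3 and at 2540, 1960 and 2380 CPM after LPS. The LPS libraries all lay above the resting ones, and the log2 fold change was 0.84 ± 0.14 (SE, edgeR adjusted p = 0.000311). In 3F Mcl1 stood at 1370, 1310 and 1430 CPM at rest and at 2320, 2430 and 1890 CPM after LPS, again without overlap, a log2 fold change of 0.70 ± 0.14 (edgeR adjusted p = 0.0012). In KO it stood at 1510, 1410 and 1810 CPM at rest and at 1910, 2070 and 1820 CPM after LPS. These KO libraries did not overlap either, but resting replicate 3, the library with the high interferon genes, lay within 0.01 of its same-numbered LPS library on the log2 scale. The KO log2 fold change was 0.29 ± 0.14 (edgeR adjusted p = 0.125), and without resting KO replicate 3 it was 0.40 (adjusted p = 0.0339). With limma quality weights on all libraries it was 0.37 (adjusted p = 0.00332), so the call depends on the setting. The difference between the LPS responses of KO and WT was −0.54 ± 0.19 (edgeR interaction, adjusted p = 0.74) and was not called, and without resting KO replicate 3 it was −0.43 (adjusted p = 0.832).

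The A1 copies Bcl2a1a and Bcl2a1d rose with LPS from low levels. Bcl2a1a had 0, 3 and 2 counts in resting WT replicates 1 to 3 and 20, 21 and 25 counts after LPS, which is 0 to 0.226 CPM against 1.40 to 1.83 CPM. Set against a floor of 3 counts per library, it was at least 6.54-fold higher after LPS in WT (edgeR adjusted p = 0.000997). Bcl2a1a passed the filter on low counts through its LPS libraries, so its p values here add no separate support for a rise. In KO it had 6, 4 and 2 counts at rest and 46, 41 and 20 counts after LPS, a log2 fold change of 2.98 ± 0.55 (edgeR adjusted p = 0.000788). In 3F it had 3, 2 and 3 counts at rest and 25, 17 and 6 counts after LPS, at least 3.38-fold higher (edgeR adjusted p = 0.00971). The resting and LPS libraries did not overlap in any genotype, but the 3F gap was less than 1 count. Resting 3F replicate 3 stood at 0.702 CPM and LPS replicate 3 at 0.77 CPM, and 1 count in that resting library is 0.234 CPM. The 3F call was lost without resting replicate 1 (adjusted p = 0.05), resting replicate 2 (0.061) or LPS replicate 1 (0.0584).

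Bcl2a1d stood at 1.90, 1.05 and 1.45 CPM in resting WT and at 2.65, 5.05 and 4.40 CPM after LPS, without overlap and with a log2 fold change of 1.44 ± 0.38 (edgeR adjusted p = 0.00928). In KO it stood at 2.23, 1.68 and 0.786 CPM at rest and at 3.44, 3.40 and 3.14 CPM after LPS. The KO libraries did not overlap, yet the log2 fold change of 1.03 ± 0.38 missed the threshold (edgeR adjusted p = 0.0538). It passed without resting KO replicate 1, at 1.37 (adjusted p = 0.0393), and was 0.76 ± 0.37 without resting KO replicate 3 (adjusted p = 0.13). In 3F the groups overlapped, with 1.52, 1.33 and 2.58 CPM at rest and 4.98, 2.25 and 4.10 CPM after LPS, and the log2 fold change was 1.17 ± 0.39 (edgeR adjusted p = 0.0322). That call was lost without resting 3F replicate 1 (0.0916) or 2 (0.118) and without LPS replicate 1 (0.147) or 3 (0.0742).

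Bcl2a1b, the copy with the most counts, was not called in any LPS response. It stood at 10.4, 7.76 and 11.5 CPM in resting WT and at 8.72, 9.90 and 14.1 CPM after LPS, a log2 fold change of 0.15 ± 0.29 (edgeR adjusted p = 0.755) with overlapping groups. In KO it stood at 8.72, 6.58 and 4.38 CPM at rest and at 12.3, 9.92 and 9.49 CPM after LPS, which did not overlap, with a log2 fold change of 0.66 ± 0.29 (edgeR adjusted p = 0.108). In 3F it stood at 9.76, 12.7 and 22.9 CPM at rest and at 10.5, 8.38 and 10.1 CPM after LPS, a log2 fold change of −0.59 ± 0.29 (edgeR adjusted p = 0.138). The 22.9 CPM belonged to the shallowest library, resting 3F replicate 3, and without it the 3F value was −0.26 ± 0.26 (adjusted p = 0.489). Without resting 3F replicate 1 it was −0.83 (adjusted p = 0.0437). In KO the value without resting replicate 3 was 0.46 ± 0.30 (adjusted p = 0.254). With the counts of the 3 copies summed, the LPS response was 0.52 ± 0.29 in WT (edgeR adjusted p = 0.201), 0.94 ± 0.30 in KO (0.0275) and −0.18 ± 0.30 in 3F (0.676), so that the summed value passed in KO alone. Both mutant values rest on the libraries that stood apart: without resting KO replicate 3 the KO value was 0.72 ± 0.30 (adjusted p = 0.0743), and without resting 3F replicate 3 the 3F value was 0.15 ± 0.27 (adjusted p = 0.729).

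Bcl2 and Bcl2l1 fell with LPS in every genotype. Bcl2l1 (ENSMUSG00000007659, chr2:152780668-152831728), which encodes BCL-XL, stood at 108, 111 and 103 CPM in resting WT and at 69.3, 59.7 and 70.8 CPM after LPS, a log2 fold change of −0.69 ± 0.12 (edgeR adjusted p = 0.000647). In KO it stood at 90.1, 104 and 101 CPM at rest and at 49.2, 48.5 and 51.8 CPM after LPS, a log2 fold change of −0.98 ± 0.13 (edgeR adjusted p = 2.83e-05). In 3F it stood at 130, 133 and 89.4 CPM at rest and at 70.6, 66.2 and 68.5 CPM after LPS, a log2 fold change of −0.79 ± 0.13 (edgeR adjusted p = 0.000225). Each LPS library lay below each resting library of its genotype. Without resting 3F replicate 3, at 89.4 CPM, the 3F log2 fold change was −0.99 ± 0.09 (edgeR adjusted p = 1.49e-06).

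Bcl2 (ENSMUSG00000057329, chr1:106538178-106714274) stood at 20.5, 25.1 and 28.1 CPM in resting WT and at 15.2, 19.9 and 13.7 CPM after LPS, a log2 fold change of −0.59 ± 0.18 (edgeR adjusted p = 0.0189). In KO it stood at 19.4, 25.6 and 19.6 CPM at rest and at 13.2, 10.9 and 11.0 CPM after LPS, a log2 fold change of −0.89 ± 0.18 (edgeR adjusted p = 0.00153). In 3F it stood at 29.4, 29.0 and 20.8 CPM at rest and at 14.5, 17.7 and 15.8 CPM after LPS, a log2 fold change of −0.74 ± 0.18 (edgeR adjusted p = 0.00503). The groups did not overlap in any genotype. Without resting 3F replicate 3 the 3F log2 fold change was −0.91 ± 0.18 (edgeR adjusted p = 0.00171). The WT call, the weakest of the 3, was lost without resting WT replicate 2 (adjusted p = 0.0565) or 3 (0.0897) and without LPS replicate 1 (0.0733) or 3 (0.0981).

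**Figure D2:**
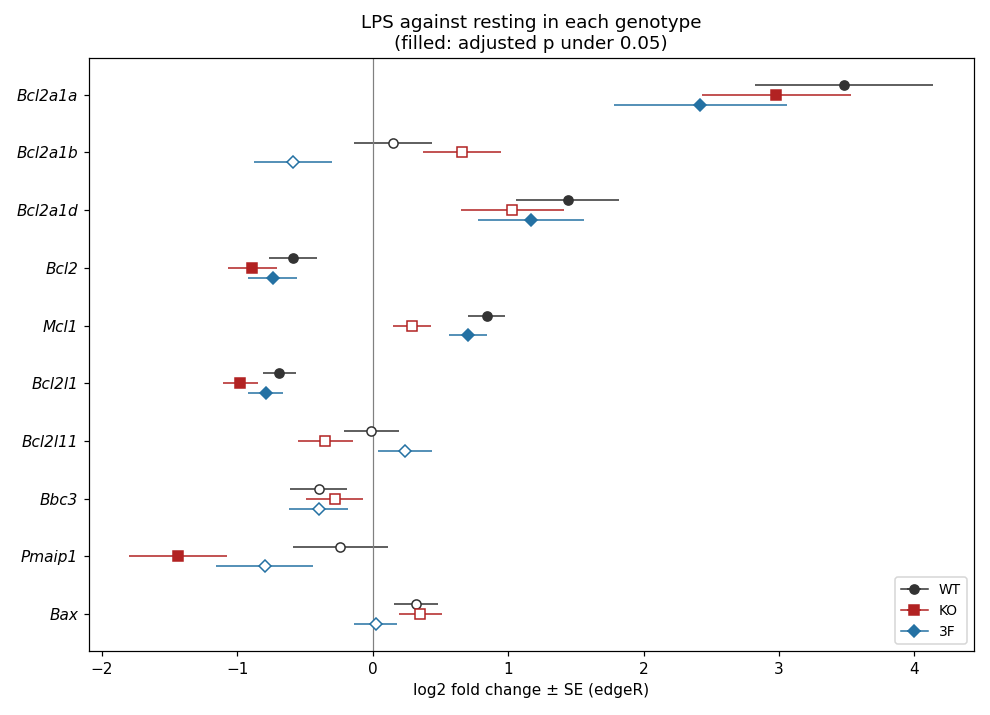
log2 fold change of LPS against resting BMDMs (x axis) with its SE for each gene (y axis) in WT (circles), KO (squares) and 3F (diamonds), filled where the adjusted p was under 0.05. Bcl2 and Bcl2l1 lie left of 0 and filled in all genotypes, and Mcl1 lies at 0.84 in WT, 0.70 in 3F and 0.29 in KO; the points of Bcl2a1a, with its few resting counts, depend on the prior count of the fit.

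With Mcl1 and Bcl2l1 moving apart, their ratio changed by more than the spread between libraries, which is given as a description. The ratio of Mcl1 to Bcl2l1 in CPM per kb was 17.6, 14.4 and 16.1 in resting WT and 49.1, 44.0 and 45.2 after LPS. In KO it was 22.5, 18.2 and 24.1 at rest and 52.1, 57.3 and 47.2 after LPS, and in 3F 14.1, 13.1 and 21.4 at rest and 44.0, 49.4 and 37.1 after LPS. The lowest KO ratio at rest lay above the highest WT ratio at rest, and resting 3F replicate 3 lay above both other resting 3F libraries. The ratio of Mcl1 to Bcl2 rose on average from 144 ± 36.8 to 392 ± 111 in WT, from 201 ± 50.2 to 448 ± 61.1 in KO and from 143 ± 35.4 to 373 ± 53.4 in 3F (SD, n = 3 each).

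**Figure D3:**
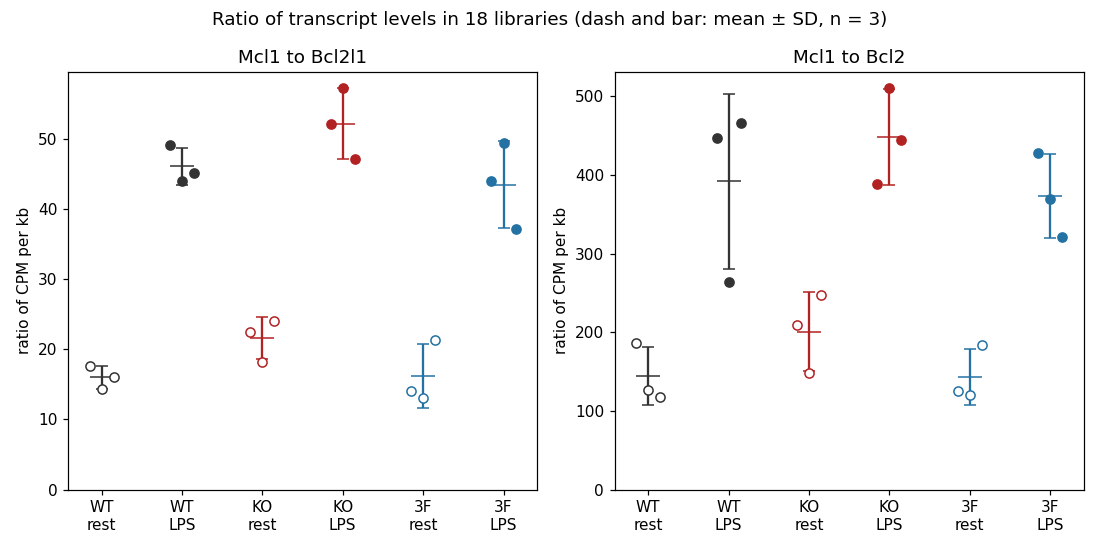
Ratio of Mcl1 to Bcl2l1 (left) and to Bcl2 (right) in CPM per kb (y axes, linear from 0) in each library, by group (open points resting, filled points LPS; dash and bar are the mean and SD, n = 3). The Mcl1 to Bcl2l1 ratio lies between 13.1 and 24.1 in the 9 resting libraries and between 37.1 and 57.3 in the 9 LPS libraries.

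Among the 4 death genes, the edgeR fit of all groups with TMM scaling called Pmaip1 in the LPS response of KO and no other in any genotype. With only the compared groups in the fit, Bcl2l11 and Bax were also called in KO (−0.40 and 0.30, edgeR adjusted p = 0.0244 and 0.032). With library size alone, Bcl2l11 was called in KO (−0.63, edgeR adjusted p = 0.0275) and Pmaip1 in 3F (−1, edgeR adjusted p = 0.0406). Bbc3 was then called in WT, KO and 3F (−0.66, −0.58 and −0.6, edgeR adjusted p = 0.0221, 0.0429 and 0.0389). With that scaling the median log2 fold change of all genes was itself −0.238 in WT, −0.264 in KO and −0.211 in 3F. With limma quality weights, Bax was also called as higher in WT, KO and 3F (log2 fold changes 0.37, 0.34 and 0.23, adjusted p = 0.00406, 0.00298 and 0.0323), and Bcl2l11 and Bbc3 as lower in KO (−0.36 and −0.46, adjusted p = 0.0104 and 0.0363). Pmaip1 (ENSMUSG00000024521), which encodes the BH3-only protein NOXA that binds MCL1 and A1, stood at 13.3, 11.4 and 4.83 CPM in resting KO and at 4.13, 3.62 and 3.28 CPM after LPS, a log2 fold change of −1.44 ± 0.36 (edgeR adjusted p = 0.00747). Resting KO replicate 3 lay nearest to the LPS libraries, and without it the value was −1.75 (adjusted p = 0.000475). In WT Pmaip1 stood at 7.16, 5.80 and 10.4 CPM at rest and at 5.44, 5.60 and 8.72 CPM after LPS, overlapping, with a log2 fold change of −0.24 ± 0.35 (edgeR adjusted p = 0.671). In 3F it stood at 8.69, 8.23 and 13.8 CPM at rest and at 8.35, 4.22 and 4.36 CPM after LPS, a log2 fold change of −0.80 ± 0.36 (edgeR adjusted p = 0.105). Without LPS replicate 1 the 3F value was −1.20 (edgeR adjusted p = 0.0373). Without resting 3F replicate 3, the library at 13.8 CPM, it was −0.61 ± 0.38 (edgeR adjusted p = 0.253). The responses of KO and WT differed by −1.20 ± 0.51 (edgeR interaction, adjusted p = 0.917), which did not pass. Without resting KO replicate 3 the difference was −1.51 ± 0.43 (edgeR interaction, adjusted p = 0.418) and did not pass either.

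Bcl2l11 (ENSMUSG00000027381, chr2:128126038-128162547), which encodes BIM, stood at 41.6, 63.4 and 69.4 CPM in resting WT and at 65.0, 50.1 and 57.5 CPM after LPS, with a log2 fold change of −0.01 ± 0.20 (edgeR adjusted p = 0.972). In KO it stood at 79.7, 75.4 and 71.4 CPM at rest, above each resting WT library, and at 62.1, 54.2 and 61.6 CPM after LPS, a log2 fold change of −0.35 ± 0.20 (edgeR adjusted p = 0.204). In 3F it stood at 65.2, 60.8 and 35.8 CPM at rest and at 66.5, 68.6 and 57.6 CPM after LPS, a log2 fold change of 0.24 ± 0.20 (edgeR adjusted p = 0.382). Without resting 3F replicate 3, the library at 35.8 CPM, the 3F value was −0.01 ± 0.17 (adjusted p = 0.966). Bbc3 (ENSMUSG00000002083, chr7:16308393-16318205), which encodes PUMA, a p53 target, lay between 4.44 and 9.36 CPM in all libraries, with LPS log2 fold changes of −0.40 ± 0.21 in WT, −0.28 ± 0.21 in KO and −0.40 ± 0.22 in 3F (edgeR adjusted p = 0.17, 0.353 and 0.176). Bax (ENSMUSG00000003873, chr7:45461697-45466898), the pore-forming effector, lay between 54.2 and 86.1 CPM in 17 of the 18 libraries and at 100 CPM in resting 3F replicate 3. Its LPS log2 fold changes were 0.32 ± 0.16 in WT, 0.35 ± 0.16 in KO and 0.02 ± 0.16 in 3F (edgeR adjusted p = 0.147, 0.116 and 0.934), and the 3F value without resting replicate 3 was 0.25 ± 0.11 (adjusted p = 0.118).

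The genotype comparisons gave few differences among the 10 genes. None was called between KO and WT at rest, where 9.4% of all tested genes were called by edgeR and 1 of the 10 had an unadjusted p under 0.05, as had 23.5% of all genes. That gene was Mcl1, with a log2 difference of 0.30 ± 0.14 (edgeR adjusted p = 0.198), and 0.19 without resting KO replicate 3 (adjusted p = 0.488). The median log2 difference was 0.10 for the 10 genes and 0.02 for all genes. DESeq2 also called 0 of the 10. After LPS, 0 of the 10 were called between KO and WT by edgeR, where 4.79% of all genes were called, and 3 of the 10 had an unadjusted p under 0.05, as had 18% of all genes.

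Those 3 genes, Bcl2, Bcl2l1 and Pmaip1, were lower in each KO library than in each WT library after LPS. Of all 11357 genes, 33% did not overlap between these groups in either direction, so 3 of 10 is near the share over all genes. Bcl2l1 had a mean of 49.8 ± 1.73 CPM in KO and 66.6 ± 6.02 CPM in WT (SD, n = 3), a log2 difference of −0.42 ± 0.13 (edgeR adjusted p = 0.0647). DESeq2 put the same difference at −0.43 (adjusted p = 0.0225), so the call depends on the tool. With limma quality weights Mcl1 was also called, at −0.31 (adjusted p = 0.0382, against −0.24 and 0.38 in edgeR). Bcl2 had means of 11.7 ± 1.29 and 16.3 ± 3.21 CPM, a log2 difference of −0.48 ± 0.18 (edgeR adjusted p = 0.147), and Pmaip1 had means of 3.68 ± 0.428 and 6.59 ± 1.85 CPM, a log2 difference of −0.84 ± 0.37 (edgeR adjusted p = 0.236). Bcl2 and Bcl2l1 are the members whose 3′ UTR holds a seed match, as do 22.1% of the tested genes with an annotated 3′ UTR. Their log2 differences of KO from WT at rest were −0.18 ± 0.17 and −0.13 ± 0.12. Whether miR-146a acts on these 2 genes was not tested.

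Between 3F and WT, 0 of the 10 genes were called in either state, with 0% of all tested genes called at rest and 0.00881% after LPS, and 0 of the 10 had an unadjusted p under 0.05. DESeq2 also called 0 of the 10 in both states. At rest the smallest adjusted p was 0.843. Without resting 3F replicate 3 the resting log2 differences of Bcl2l1, Bcl2a1b and Bax went from 0.13, 0.55 and 0.26 to 0.29, 0.19 and 0, each with an adjusted p of 1. The 95% interval of the log2 difference of Mcl1 was −0.20 to 0.38 at rest and −0.34 to 0.24 after LPS, and that of Bcl2l1 was −0.13 to 0.40 at rest and −0.23 to 0.30 after LPS. For Bcl2a1a, with its low counts, the interval at rest was −1.21 to 2.60. The difference of the LPS response of 3F from that of WT was called for 0 of the 10, with 0% of all genes called, 0 of the 10 at an unadjusted p under 0.05 and an interval for Mcl1 of −0.55 to 0.27. For KO this difference was called for 0 of the 10, with 0.00881% of all genes called and 2 of the 10, Mcl1 and Pmaip1, at an unadjusted p under 0.05, as were 4.93% of all genes. DESeq2 called 0 of the 10 in both.

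**Figure D4:**
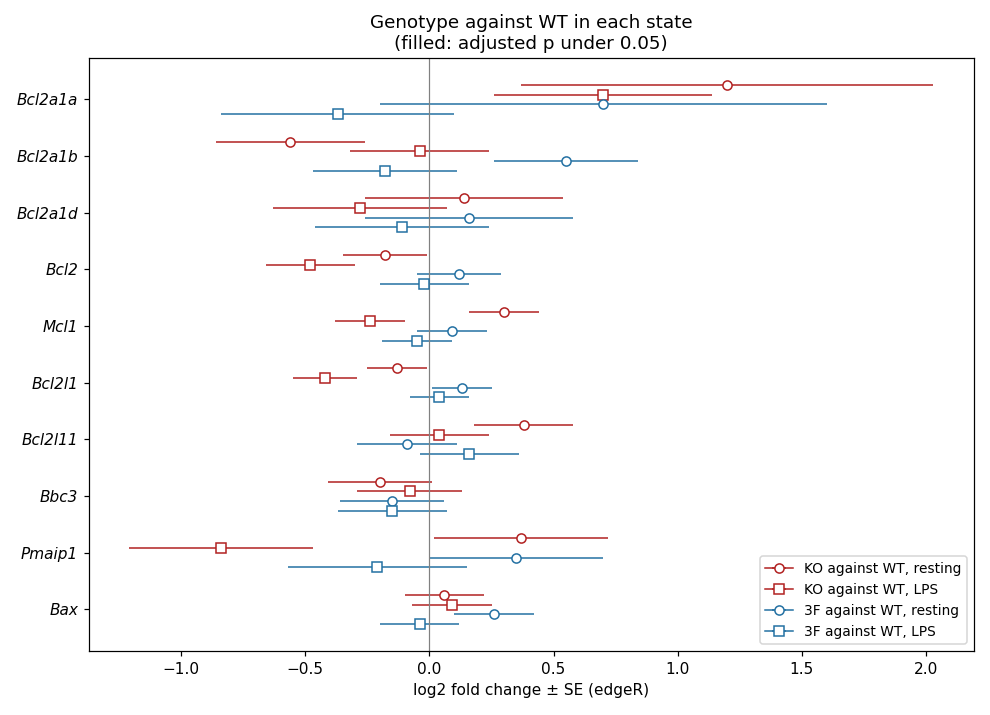
log2 difference of KO (red) and 3F (blue) from WT with its SE (x axis) for each gene (y axis), at rest (circles) and after LPS (squares), none filled because no adjusted p was under 0.05. After LPS the KO values of Bcl2 (−0.48), Bcl2l1 (−0.42) and Pmaip1 (−0.84) lie left of 0, and the 3F values of Bcl2 and Bcl2l1 lie at −0.02 and 0.04.

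Between KO and 3F at rest 1 of the 10 genes was called, where 12.9% of all genes were called. That gene was Bcl2a1b, which had 8.72, 6.58 and 4.38 CPM in KO and 9.76, 12.7 and 22.9 CPM in 3F, a log2 difference of −1.11 ± 0.30 (edgeR adjusted p = 0.0247). The lowest KO value and the highest 3F value belonged to the libraries that stood apart, and the call was lost without resting KO replicate 3 (−0.89, adjusted p = 0.0761) and without resting 3F replicate 3 (−0.73, adjusted p = 0.109). It was also lost without resting KO replicate 2 (−1.10, adjusted p = 0.0529). With the 3 A1 copies summed the log2 difference was −0.95 ± 0.30 (edgeR adjusted p = 0.0511) and was not called. The summed value was −0.71 (edgeR adjusted p = 0.145) without resting KO replicate 3 and −0.56 (0.24) without resting 3F replicate 3. Bcl2l1 showed the reverse pattern: its log2 difference of −0.27 ± 0.12 (edgeR adjusted p = 0.155) became −0.42 (adjusted p = 0.0146) without resting 3F replicate 3. The part of library state and depth in these values was not tested.

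After LPS 0 of the 10 were called between KO and 3F by edgeR, where 3.88% of all genes were called, and 3 of the 10 had an unadjusted p under 0.05, as had 16.9% of all genes. Bcl2l1 was at 49.8 ± 1.73 CPM in KO and 68.4 ± 2.23 CPM in 3F, a log2 difference of −0.46 ± 0.13 (edgeR adjusted p = 0.0525, DESeq2 adjusted p = 0.0129). Bcl2 differed by −0.46 ± 0.18 (edgeR adjusted p = 0.19) and Bcl2a1a by 1.07 ± 0.46 (edgeR adjusted p = 0.243). The comparisons of KO with WT and with 3F share the KO libraries.

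Across the 6 groups the mean CPM of Bcl2l1 ran from 49.8 in KO with LPS, through 66.6 in WT and 68.4 in 3F with LPS, to 98.3, 108 and 118 in resting KO, WT and 3F. The SD ranges of WT and 3F with LPS overlapped, as did those of the resting groups, while those of KO and WT with LPS did not. For Mcl1 the order was resting WT, 3F and KO at 1280, 1370 and 1580 CPM and then KO, 3F and WT with LPS at 1930, 2220 and 2290 CPM. Neighbouring resting groups did not differ beyond their spread, and neither did the neighbouring LPS groups. The genes most like each member over the 18 libraries, by Pearson correlation of log2 CPM, were Zfand2a (r = 0.976) and Cipc (0.972) for Bcl2l1, Syne1 and Rhoj (0.945 each) for Bcl2, 3110043O21Rik (0.935) and Stoml1 (0.931) for Mcl1 and Cyba (0.93) and Ap2s1 (0.929) for Bax. For the death gene Bcl2l11 they were Gas2l1 (0.909) and Pcnx3 (0.902), for Pmaip1 Myom1 (0.836) and Cd83 (0.83), and for Bbc3 Abhd14a (0.82) and Atraid (0.803). For Bcl2a1a they were Epha4 (0.953) and Rpl24 (0.948), for Bcl2a1b Lzic (0.889) and Swi5 (0.874), and for Bcl2a1d Cul1 (0.91) and Plaa (0.90). These libraries share the LPS treatment and depth, and the values are a description.

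For this list and the next 2, the shares of all tested genes are given first. They belong to the fit of all 18 libraries. For the fits without a library the shares were not determined, so list counts from those fits cannot be set against them. With LPS 16.3% rose and 12.3% fell in WT, 14.3% and 12.6% in KO and 17.2% and 14% in 3F. Between KO and WT 9.4% were called at rest and 4.79% after LPS, and between KO and 3F 12.9% and 3.88%. Of 16 other BCL2 family genes, 15 were in the table and 9 were tested. In WT 2 rose and 2 fell, with a median log2 fold change of 0.24, against 0.02 over all genes. Bnip3, which encodes a mitochondrial protein of mitophagy, rose from 50.4 ± 8.04 to 162 ± 23.1 CPM (log2 fold change 1.69 ± 0.25, edgeR adjusted p = 0.000134), and its relative Bnip3l rose by 0.29 ± 0.09 on the log2 scale (adjusted p = 0.0268). The BH3-only gene Bmf fell from 21.3 ± 2.96 to 14.2 ± 1.03 CPM (−0.58 ± 0.15, edgeR adjusted p = 0.00961), and the BAX-like gene Bok fell from 1.30 ± 0.765 to 0.282 ± 0.0727 CPM (−2.20 ± 0.54, edgeR adjusted p = 0.00608). In KO 2 rose and 2 fell and in 3F 3 rose and 1 fell. Without resting KO replicate 3 the KO count was 4 higher and 1 lower, and without resting 3F replicate 3 the 3F count was 4 and 1. Bok was also lower in KO than in WT at rest (−1.74 ± 0.53, edgeR adjusted p = 0.0484), the single gene of the 9 called there. Without resting KO replicate 3 Bok was at −1.81 (adjusted p = 0.0818), and the gene called was Bid, which encodes the BH3-only link from death receptors to mitochondria. Bid differed by −0.56 ± 0.18 with all libraries (edgeR adjusted p = 0.0608) and by −0.88 ± 0.13 without that library (adjusted p = 0.00176). After LPS 0 of the 9 were called between KO and WT. Between 3F and WT 0 of the 9 were called in either state, and between KO and 3F Bid was lower at rest (−0.63 ± 0.18, edgeR adjusted p = 0.0335, and 0.0637 without resting 3F replicate 3) and 0 were called after LPS. Bak1, the partner effector of Bax, had a WT log2 fold change of 0.65 ± 0.31 (edgeR adjusted p = 0.135).

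All 16 genes of a list of caspases, the apoptosome and their inhibitors were tested. With LPS in WT 7 rose and 0 fell, against 16.3% and 12.3% of all genes. The median was 0.36, against 0.02 over all genes. Birc3, which encodes the ubiquitin ligase cIAP2, rose from 52.2 ± 7.21 to 143 ± 7.68 CPM (1.46 ± 0.12, edgeR adjusted p = 4.01e-07), and Cflar, which encodes the caspase-8 inhibitor cFLIP, rose from 199 ± 16.2 to 576 ± 101 CPM (1.53 ± 0.15, edgeR adjusted p = 2.2e-06). The apoptosome scaffold Apaf1 rose by 0.54 ± 0.10 on the log2 scale (edgeR adjusted p = 0.000748), so that genes of both directions of the pathway rose. In KO and in 3F 5 rose and 0 fell, and in KO 8 rose without resting replicate 3. Birc3 was the 1 gene of this list called between KO and WT, higher in KO at rest (97.5 ± 15.2 against 52.2 ± 7.21 CPM, 0.90 ± 0.12, edgeR adjusted p = 0.000698, and 1.02 ± 0.11 without resting KO replicate 3) and after LPS (225 ± 9.36 against 143 ± 7.68 CPM, 0.65 ± 0.12, edgeR adjusted p = 0.00503). Between KO and 3F 2 were higher at rest, 1 when either library that stood apart was left out, and 1 after LPS, and between 3F and WT 0 were called.

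Of 13 genes that regulate members or their proteins, 2 rose and 0 fell with LPS in WT, with a median of 0.26, against 0.02 over all genes. With 16.3% of all genes higher, 2 of 13 is near the share over all genes. The 2 were Nfkb1, an NF-κB subunit gene, from 115 ± 6.32 to 192 ± 12.4 CPM (0.74 ± 0.11, edgeR adjusted p = 0.000143), and Mdm2, which encodes the ligase that degrades p53, from 129 ± 2.45 to 174 ± 9.72 CPM (0.43 ± 0.10, edgeR adjusted p = 0.00289). In KO 3 rose and 1 fell, 0 without resting replicate 3, and in 3F 3 rose and 0 fell. Nfkb1 was the 1 gene called between KO and WT, higher in KO at rest (0.52 ± 0.11, edgeR adjusted p = 0.009, and 0.0108 without resting KO replicate 3) and after LPS (0.59 ± 0.11, edgeR adjusted p = 0.00612). Between KO and 3F 2 were higher and 1 lower at rest, 2 and 0 without resting KO replicate 3 and 1 and 0 without resting 3F replicate 3, and 1 was higher after LPS, and between 3F and WT 0 were called. In the interactions of either mutant with LPS 0 genes of these 3 lists were called. The 10 interferon response genes rose with LPS in WT and 3F (10 of 10 each, median log2 fold changes 5.98 and 5.51), and 0 of 10 were called in KO (median 1.47). Without resting KO replicate 3, 10 of 10 rose in KO (median 4.67). At rest 10 of 10 were higher in KO than in WT and than in 3F (medians 5.08 and 4.79), and without that library 7 and 6 of 10 were (medians 2.06 and 1.79).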

How the data were processed

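The authors trimmed adapters with cutadapt 1.8.3, removed ribosomal reads, aligned the rest to mm10 with HISAT2 2.1.0 and counted reads per Gencode M15 gene by strand with featureCounts 1.5.3 at a mapping quality of at least 50. The deposited values are raw counts per gene, without normalization, with a length column whose definition is not given in the sources used here. Counts were analysed in R 4.3.3 with edgeR 4.0.16: filterByExpr, TMM (factors 0.812 to 1.15), and a single quasi-likelihood model of all 18 libraries with 1 term per group. P values were two-sided and adjusted by Benjamini-Hochberg over 11357 genes, and SE is the log2 fold change divided by the root of F. DESeq2 1.42.0 and limma 3.58.1 (quality weights) served as alternatives, and values of members and lists without resting KO or 3F replicate 3 were added after seeing the data. Groups at 3 counts or fewer per library were taken as at the floor, which covers counting error only. With 3 libraries against 3 the smallest exact permutation p is 0.1. No 2 replicates of a group agreed within counting noise (chi-square over its degrees of freedom at least 7.03). The procedure was tested on simulated data. Sequences came from Gencode M21 transcripts and RefSeq tables read with Python 3.11.15 and Biopython 1.88. Proteins were not used here.

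The 10 members are always named. From the lists of other family genes, caspases and regulators, up to 4 called genes with the smallest p were named in the WT LPS response and in KO against WT in each state. One gene that this rule names is not reported here. Other genes named were chosen after their values were seen. Members and lists were chosen with earlier results of these data known.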

Additional observations from a re-analysis of the deposited data

Results flagged for a closer look

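Bcl2l11, which encodes the BH3-only protein BIM, had log2 changes with LPS of opposite sign in KO and in 3F when same-numbered libraries, which are not known to be pairs, were set side by side. Neither response was called (edgeR adjusted p = 0.204 and 0.382). The log2 change was −0.36, −0.48 and −0.21 in KO replicates 1 to 3 and 0.03, 0.17 and 0.68 in 3F, and the mean of KO minus 3F was −0.64. In WT the changes were 0.64, −0.34 and −0.27. The largest 3F change involved resting 3F replicate 3, the shallowest library, and without it the fitted 3F response was −0.01 ± 0.17 (adjusted p = 0.966). A test of the difference, added after these values were seen, gave −0.59 ± 0.28 (edgeR interaction, adjusted p = 0.452), with 2 of 11357 genes called, so the difference did not pass, and without that library it was −0.40 ± 0.23 (adjusted p = 0.745).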

How the results depend on the processing

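Setting the counts of the 3 A1 copies together turned the direction of Bcl2a1a and Bcl2a1d in the 3F LPS response to −0.18 (adjusted p = 0.676), since Bcl2a1b holds most of the counts, and to 0.15 (0.729) when resting 3F replicate 3 was also left out; no other called value of the 10 genes changed sign under any alternative run, while without resting 3F replicate 3, 7 of 40 values did, of which 0 were called. With quality weights (limma), 8 of the 10 genes were called in the KO LPS response, 2 in KO against WT after LPS, 4 in KO against 3F at rest and 1 in KO against 3F after LPS. For the alternative runs in this section the share of all genes called was not determined. Their counts therefore cannot be read as particular to these 10 genes. Library size alone also called Bbc3 as lower in the LPS response of each genotype, and quality weights called Bax as higher in each. With library size alone or DESeq2, 1 gene, Bcl2l1, was called in each of KO against WT and KO against 3F after LPS. A fit of the compared groups alone called 1 in KO against WT after LPS, 2 in KO against 3F after LPS and 0 in KO against 3F at rest. Leaving out single libraries gave 3 to 5 calls in the 3F LPS response and 0 to 1 in KO against 3F at rest. Library size alone moved the median log2 fold change of all genes to −0.238, −0.264 and −0.211 in the LPS responses of WT, KO and 3F, and to −0.125 and −0.117 in KO against WT and against 3F after LPS.

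Same-numbered libraries of the 2 states correlated, as deviations from group means, at 0.05, 0.28 and 0.29 in WT, 0.32, 0.03 and 0.04 in KO and 0.05, 0.29 and 0.11 in 3F. Resting KO replicate 3 correlated better with LPS replicate 2 (0.12). For every other resting library the same-numbered LPS library had the highest correlation, in some by a small margin. Same-numbered libraries also share a letter in the labels, which is not explained there. The main fit did not pair libraries, and pairing by number is not excluded. With the replicate number as a block, 5, 5 and 4 of the 10 were called in the LPS responses of WT, KO and 3F (Bcl2a1b gained in KO, Bcl2a1d lost in 3F), and 1 in KO against 3F at rest. Depth limits Bcl2a1a most, with 0 to 6 counts per resting library.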
